A study of Drosophila melanogaster with 16 samples.

Results

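The interaction of repeat length and insertion line asks, for each gene, whether the change from the 5R to the 160R transgene was the same in flies carrying it on chromosome 3 as in flies carrying it on chromosome 2. It was taken as (Chrom3-160R minus Chrom3-5R) minus (Chrom2-160R minus Chrom2-5R) over all 16 libraries of the series, with raw counts as input. A positive interaction means that 160R raised a gene more, or lowered it less, on chromosome 3. Of 13525 genes tested, 983 passed edgeR's quasi-likelihood test with an adjusted p (Benjamini-Hochberg) under 0.05, which is 7.27% of the genes tested. The called genes are described by their levels in the 4 groups: changed in 1 line, opposite in the lines, or crossed between the groups.

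All libraries came from heads of male Drosophila melanogaster, 5 to 8 days after eclosion, raised at 25 °C. Chrom2-5R and Chrom2-160R flies expressed 5R or 160R from chromosome 2, and Chrom3-5R and Chrom3-160R flies expressed them from chromosome 3, with 4 libraries in each group. RNA was total and strand-specific, without poly(A) selection. The labels name no driver, no insertion site and no cross, and no group without a repeat was analysed here.

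An expanded GGGGCC repeat in C9ORF72 is a frequent inherited cause of frontotemporal dementia and amyotrophic lateral sclerosis, and repeat RNA forms nuclear foci and is translated into dipeptide repeat proteins. Fly lines that carry a transgene at different sites can differ in how strongly they express it, through position effects on chromatin, and in the genetic background that travels with each insertion. A factorial contrast removes differences between lines that are shared by the 5R and 160R flies, but not background differences found in only 1 of the 4 groups.

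On chromosome 2, library totals were 11452337 to 23498476 counts for 5R flies and 19047916 to 30496479 for 160R flies. On chromosome 3 they were 42854987 to 53615117 and 48118158 to 49792428. Insertion line and depth therefore cannot be told apart. Eye, neuronal and glial markers were present in every library, with ninaE (rhodopsin) at 3120 to 11500 normalised read counts (CPM, counts scaled to library size) and repo (glia) at 88.6 to 117 CPM, and the male RNA roX1 was at 1690 to 2620 CPM. In bulk heads, fewer cells of a type and less RNA per cell cannot be told apart. Chrom2-160R replicate 1 and Chrom3-160R replicate 4 stood apart in the median log2 CPM of 30 muscle genes, centred over the libraries, at 0.91 and 0.38 against -0.35 to 0.18 in the other 14, and the male accessory gland gene Peb reached 99.9 CPM in Chrom2-160R against at most 0.348 CPM in the other groups. With both of those muscle-rich libraries left out, 1334 genes were called, among them 864 of the 983. The part of muscle or accessory gland RNA in single results was not tested.

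The interaction was positive for 528 of the called genes (3.9% of those tested) and negative for 455 (3.36%), and the median over all genes tested was -0.006 on the log2 scale. Upper-quartile scaling in place of TMM changed this split to 369 positive and 755 negative, with the median of all genes at -0.056. Most called differences were modest: the median size was 0.408 log2, 314 genes reached 1.5-fold and 121 reached 2-fold. The count depended on single libraries. It fell to 584 without Chrom2-5R replicate 3, 597 without Chrom3-5R replicate 1, 600 without Chrom2-160R replicate 2, 625 without Chrom3-160R replicate 2, 632 without Chrom2-5R replicate 1 and 636 without Chrom3-160R replicate 1. It rose to 1695 without Chrom2-5R replicate 4, and 931 of the 983 genes were among those. With every library thinned to the smallest total, 671 genes were called and 578 of them were shared with the 983.

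Within a line, the same fit called 3535 genes between Chrom2-160R and Chrom2-5R (26.1% of those tested) and 285 between Chrom3-160R and Chrom3-5R (2.11%). Of the 983 interaction genes, 804 (81.8%) were called only on chromosome 2, 76 (7.73%) only on chromosome 3, 24 (2.44%) in opposite directions on both, and 21 (2.14%) in the same direction with different sizes. The other 58 (5.9%) were called in neither line alone. The contrasts and the interaction share libraries, so these shares describe the genes and are not separate tests. Leaving out single libraries moved the first class between 464 genes (without Chrom2-5R replicate 3) and 1430 (without Chrom2-5R replicate 4), and the second between 53 (without Chrom3-160R replicate 2) and 124 (without Chrom2-160R replicate 1). The opposite class ran from 18 (without Chrom2-5R replicate 2) to 34 (without Chrom2-160R replicate 1).

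The plot of the change on chromosome 3 against the change on chromosome 2 shows these classes. For the 804 genes changed only on chromosome 2, the median size of change was 0.41 log2 on that chromosome and 0.08 on chromosome 3. The direction on chromosome 2 was up for 340 and down for 464. Their point estimates had opposite signs in the lines in 432 cases (53.7%). For the 76 genes changed only on chromosome 3 the median sizes were 0.5 there and 0.09 on chromosome 2. Of these, 61 fell and 15 rose with 160R on chromosome 3.

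**Figure D1:**
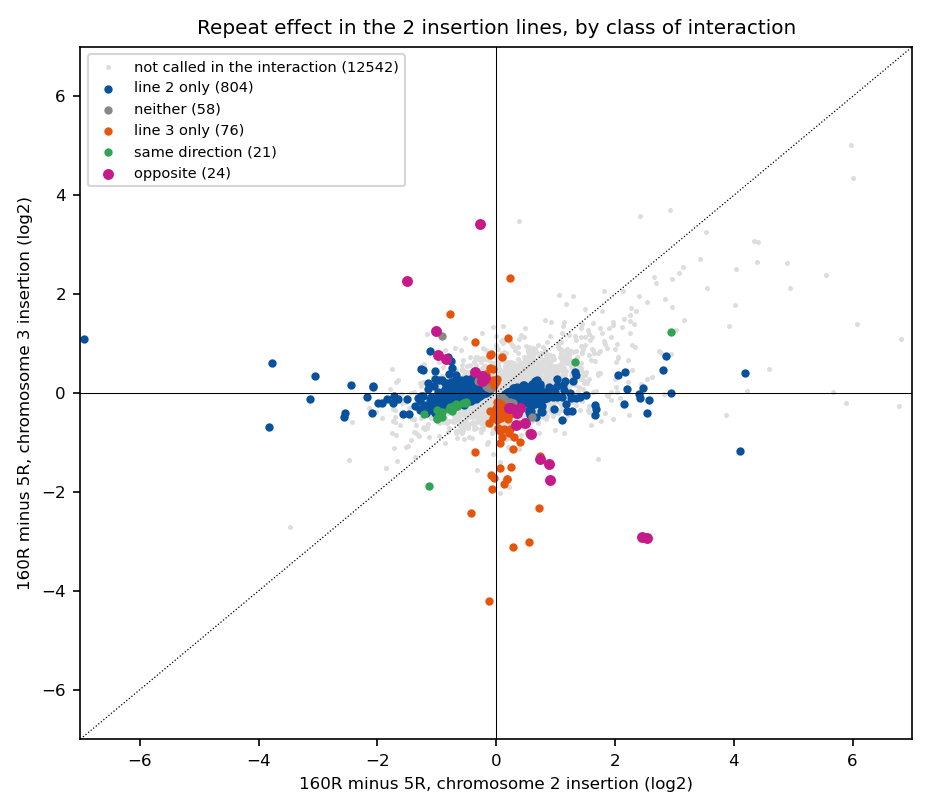
Change from 5R to 160R (log2) with the chromosome 2 insertion (x axis) and the chromosome 3 insertion (y axis), 1 point per gene tested, coloured by class among the 983 genes called in the interaction. The 804 genes changed on chromosome 2 alone spread along the horizontal axis, the 76 changed on chromosome 3 alone along the vertical axis, and the 24 opposite genes lie in the upper left and lower right.

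A second view describes which group stood apart. The genes were called from these same libraries, which favours such patterns, so a share above that of all genes is not a separate test. In 753 of the called genes (76.6%) all 4 libraries of 1 group lay above or below all 12 others, against 17.2% of all genes tested. That group was Chrom2-5R for 349 genes (198 above, 151 below), against 7.07% of all genes tested. It was Chrom2-160R for 279 (103 above, 176 below), against 6.01% of all genes. Chrom3-5R stood apart for 96 called genes (75 above, 21 below) against 3.11% of all genes (1.76% above), and Chrom3-160R for 29 (16 above, 13 below) against 1.06%. Among the called genes, the most frequent of these patterns was thus a Chrom2-5R group, the short-repeat control of the chromosome 2 line, apart from the rest. The lines differed in 30.3% of all genes tested in 5R flies and in 22.5% in 160R flies. The comparison of the lines in 5R flies called 467 of the 983 genes that the comparison in 160R flies did not, and the reverse held for 291. Both comparisons called 215 and neither called 10.

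Genes changed on chromosome 2 alone were ranked by interaction p-value within the naming rule's limits on interaction size and overlap. Among those genes, CG11052, CG17005 and CG30054 had the smallest p-values of the ones raised by 160R. The smallest among the ones lowered was that of nompB. CG11052 (FBgn0040524, 3R:8008249-8009297 on BDGP6) was at 1.79, 1.37, 1.77 and 1.13 CPM in the 4 Chrom2-5R libraries and at 6.74, 5.58, 7.76 and 6.86 CPM in Chrom2-160R. In Chrom3-5R it was at 8.42, 8.16, 7.61 and 7.32 CPM and in Chrom3-160R at 8.79, 8.03, 9.06 and 7.64 CPM. The Chrom2-5R libraries all lay below the other 12, and the chromosome 3 groups overlapped. The change was 2.19 ± 0.14 log2 (SE) on chromosome 2 and 0.09 ± 0.1 on chromosome 3, and the interaction was -2.11 ± 0.17 (edgeR adjusted p = 1.1e-06).

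The gene nompB encodes an intraflagellar transport protein that sensory neurons need to build cilia. It showed the mirror image of that pattern. Its levels (FBgn0016919, 2L:21578292-21589423) were 9.89, 12.8, 11.1 and 11.3 CPM in Chrom2-5R and 3.65, 3.11, 3.85 and 3.1 CPM in Chrom2-160R. They were 3.8, 3.9, 3.38 and 3.75 CPM in Chrom3-5R and 3.82, 3.37, 3.84 and 3.14 CPM in Chrom3-160R. Only the Chrom2-5R libraries were high, and the other 3 groups overlapped one another. The interaction was 1.66 ± 0.14 log2 (edgeR adjusted p = 1.6e-06).

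CG13081 also stood out in the Chrom2-5R libraries, at 4.99, 4.36, 10.3 and 4.74 CPM. The other 12 libraries lay between 0.162 and 0.811 CPM, and the interaction was 4.39 ± 0.53 log2 (edgeR adjusted p = 0.00013). CG13081 (2L:19540607-19541540) lies beside ref(2)P (2L:19542468-19545548), the fly ortholog of the autophagy receptor p62. ref(2)P, named through the autophagy list, had means of 255 ± 14 CPM (SD, n = 4) in Chrom2-5R and 188 ± 5.92, 206 ± 6.62 and 196 ± 4.08 CPM in Chrom2-160R, Chrom3-5R and Chrom3-160R. Its interaction was 0.37 ± 0.06 log2 (edgeR adjusted p = 0.00088). Both neighbours were highest in the Chrom2-5R group.

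In a different set of genes it was the Chrom2-160R libraries that stood apart. CG16926 (2R:19500295-19501418) was at 18 ± 2.7 CPM there, against 51.2 ± 3.69 in Chrom2-5R, 40.4 ± 2.69 in Chrom3-5R and 37.3 ± 6.96 in Chrom3-160R. Its interaction was 1.39 ± 0.17 log2 (edgeR adjusted p = 0.00026). CG18673 (3R:31262598-31263878) was at 0.912, 1.02, 0.843 and 0.849 CPM in Chrom2-160R and at 10.6, 12.4, 10.3 and 16.9 CPM in Chrom2-5R. In Chrom3-5R it was at 10.3, 5.58, 7.93 and 3.93 CPM and in Chrom3-160R at 4.87, 2.77, 2.89 and 6.55 CPM. The Chrom2-160R libraries were tightly grouped and lay below all 12 others, whereas the chromosome 3 groups varied widely and overlapped. Its interaction was 3.12 ± 0.52 log2 (edgeR adjusted p = 0.0032).

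**Figure D2:**
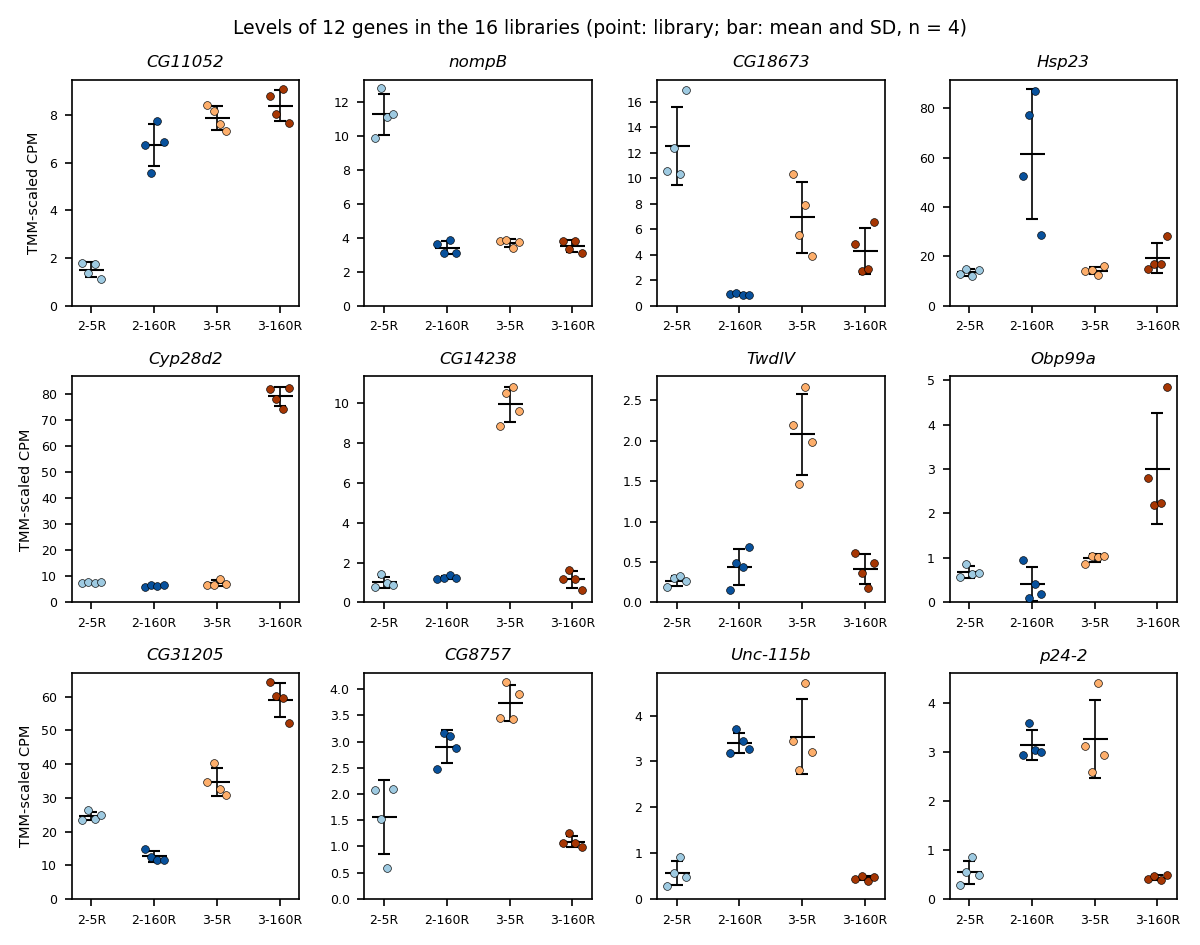
TMM-scaled CPM of 12 genes in the 16 libraries, 1 panel per gene with its own linear y axis from 0, where points are libraries and bars the mean and SD of 4. CG11052 and nompB differ in the Chrom2-5R libraries, CG18673 and Hsp23 in Chrom2-160R, CG14238 and TwdlV in Chrom3-5R, and Cyp28d2 and Obp99a in Chrom3-160R, while Unc-115b and p24-2 are high in Chrom2-160R and Chrom3-5R.

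Cyp28d2, a cytochrome P450 gene, had the smallest interaction p-value among the named genes. Its levels (FBgn0031688, 2L:5207267-5209345) were 7.63, 7.87, 7.31 and 7.96 CPM in Chrom2-5R, 6.03, 6.55, 6.17 and 6.66 CPM in Chrom2-160R and 6.81, 6.75, 8.95 and 7.05 CPM in Chrom3-5R. In Chrom3-160R they were 81.8, 78.2, 74.1 and 82.3 CPM. The Chrom3-160R libraries lay far above the other 12. The change was 3.42 ± 0.08 log2 on chromosome 3 and -0.28 ± 0.09 on chromosome 2, with an interaction of 3.7 ± 0.11 (edgeR adjusted p = 1.2e-12), and this places it among the 24 opposite genes.

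The neighbouring paralog Cyp28d1 (2L:5210460-5212445), looked up after the values of Cyp28d2 were seen, was highest in another group. Its means were 219 ± 16.5, 123 ± 18.6, 257 ± 30.8 and 168 ± 20.8 CPM in the Chrom2-5R, Chrom2-160R, Chrom3-5R and then Chrom3-160R libraries. It was lower with 160R in both lines, by -0.83 ± 0.11 log2 on chromosome 2 and -0.61 ± 0.11 on chromosome 3. Its interaction of 0.22 ± 0.16 was not called (edgeR adjusted p = 0.45).

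In 46 of the 76 genes changed only on chromosome 3, the Chrom3-5R control lay above all 12 other libraries. This held for 7.63% of the called genes and 1.76% of all genes tested. Contrasts of the same libraries chose the 76 genes, so the share describes them and is not a separate test. CG14238 (FBgn0039429, 3R:26458249-26460981) was at 8.87, 10.5, 10.8 and 9.61 CPM in Chrom3-5R and at 1.15, 1.64, 1.17 and 0.645 CPM in Chrom3-160R. It was at 0.754, 1.42, 0.967 and 0.87 CPM in Chrom2-5R and 1.17, 1.23, 1.35 and 1.24 CPM in Chrom2-160R. The other 12 libraries overlapped at a level several times lower than Chrom3-5R. The interaction was -3.39 ± 0.31 log2 (edgeR adjusted p = 3.7e-06).

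TwdlV, which encodes a Tweedle family cuticle protein, was at 2.2, 1.47, 2.67 and 1.98 CPM in Chrom3-5R. The remaining libraries lay between 0.152 and 0.686 CPM, so the Chrom3-5R libraries again stood above all others. Its interaction was -3.04 ± 0.55 log2 (edgeR adjusted p = 0.0032). CG6142 (3R:26133154-26137148) was also highest in Chrom3-5R, with 8.11 ± 0.43 CPM in Chrom3-5R and 4.35 ± 0.274 in Chrom3-160R, and its interaction was -1.2 ± 0.21 (edgeR adjusted p = 0.002). Cyp9c1 had an interaction of -1.92 ± 0.13 log2 but overlaps CG13594, which had 5.41 times its counts, so its value is uncertain.

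Fewer genes were raised by 160R on chromosome 3 alone. Obp99a, an odorant-binding protein gene, was at 2.79, 2.18, 2.23 and 4.84 CPM in Chrom3-160R and at 0.869, 1.04, 1.03 and 1.05 CPM in Chrom3-5R. It was at 0.565, 0.863, 0.645 and 0.653 CPM in Chrom2-5R and 0.963, 0.107, 0.405 and 0.196 CPM in Chrom2-160R. The Chrom3-160R libraries lay above all 12 others. The interaction was 2.37 ± 0.59 log2 (edgeR adjusted p = 0.026), and it lost the call without replicate 2 of Chrom2-5R (adjusted p = 0.0694), replicate 3 of that group (0.0546) or replicate 3 of Chrom2-160R (0.0535). CG6280 rose from 0.618 ± 0.0866 CPM in Chrom3-5R to 1.27 ± 0.282 in Chrom3-160R, against 1.88 ± 0.318 in Chrom2-5R and 1.48 ± 0.231 in Chrom2-160R. Its Chrom3-5R libraries lay below all 12 others. The CG6280 interaction was 1.39 ± 0.26 (edgeR adjusted p = 0.004) and was not called after thinning (adjusted p = 0.094). Among the 76 genes changed only on chromosome 3, Chrom3-160R stood above all other libraries in 6 and Chrom3-5R below them in 9.

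CG15696 rose on chromosome 3 from 0.146 ± 0.057 to 0.759 ± 0.0792 CPM, and it had 0 to 7 counts in the Chrom2-5R libraries. The interaction of 2.11 ± 0.57 log2 (edgeR adjusted p = 0.035) lost the call without any of 9 single libraries, at adjusted p = 0.0504 to 0.0837. These were Chrom2-5R replicates 2, 3 and 4, Chrom2-160R replicates 2, 3 and 4, Chrom3-5R replicate 4 and Chrom3-160R replicates 1 and 2.

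The 24 opposite genes were called in both lines with different signs, 12 up on chromosome 2 and down on chromosome 3 and 12 the other way. Their changes ran from 0.19 to 2.54 log2 in size on chromosome 2 and from 0.24 to 3.42 on chromosome 3, and the chromosome 3 change was the larger in 21. In 4 of them the change was at least 2-fold in both lines. A partner gene with at least 0.5 times their counts overlapped 8 of the 24. The plot of both changes for each gene shows that few had large changes in both lines.

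**Figure D3:**
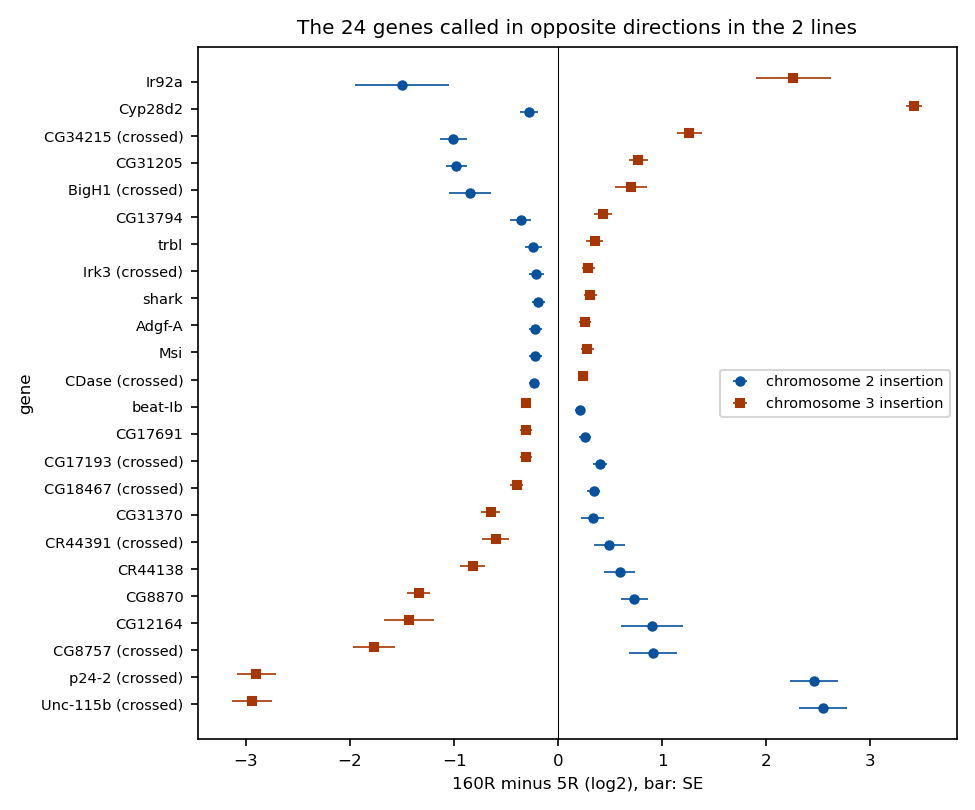
Change from 5R to 160R (log2, bars SE) of the 24 opposite genes with the chromosome 2 insertion (circles) and the chromosome 3 insertion (squares). Unc-115b and p24-2 at the bottom have changes of 2.54 and 2.46 on chromosome 2 and -2.94 and -2.9 on chromosome 3, and Cyp28d2 near the top moves almost wholly on chromosome 3.

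The largest opposite change lay in a pair of overlapping genes on chromosome arm 3R, Unc-115b (FBgn0260463, 9687060 to 9692775) and p24-2 (FBgn0053105, 9687402 to 9692794). Unc-115b is related to actin-binding UNC-115 of Caenorhabditis elegans and p24-2 to cargo receptors of the early secretory pathway. Each is the other's overlapping partner, with 0.92 and 1.08 times the counts, so their values are 1 signal and cannot be divided between them. They fell outside the naming rule for that reason and were chosen after their values were seen.

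Unc-115b was at 0.283, 0.558, 0.914 and 0.479 CPM in Chrom2-5R and 3.19, 3.7, 3.44 and 3.27 CPM in Chrom2-160R. It was at 3.45, 2.81, 4.71 and 3.21 CPM in Chrom3-5R and 0.439, 0.507, 0.402 and 0.484 CPM in Chrom3-160R. Thus 160R flies had the higher level in the chromosome 2 line and the lower level in the chromosome 3 line, with no overlap. The interaction was -5.48 ± 0.3 log2 (edgeR adjusted p = 6.6e-09) for Unc-115b and -5.36 ± 0.3 (8.4e-09) for p24-2. It kept its sign and call without any single library, at -5.8 to -5.3 for Unc-115b.

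The genes on either side, also looked up after these values were seen, were not called. Unc-115a (3R:9694386-9705417) had means of 59.7 ± 1.62, 62.7 ± 3.37, 59.8 ± 1.43 and 61 ± 0.345 CPM in the Chrom2-5R, Chrom2-160R, Chrom3-5R and then Chrom3-160R libraries. Its interaction was -0.04 ± 0.06 log2 (edgeR adjusted p = 0.73). For eca (3R:9684469-9685476) the 4 means were 10.9 ± 1.83, 10.4 ± 0.566, 11.3 ± 0.857 and 10.6 ± 0.526 CPM and the interaction was -0.02 ± 0.13 (adjusted p = 0.97). Unc-115a and eca are related in name and family to the overlapping pair, and reads shared between such copies could be divided in ways the counts do not show.

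Among the named opposite genes, CG31205 (3R:20731631-20732707) was at 23.5, 26.3, 23.8 and 24.8 CPM in Chrom2-5R and 14.9, 12.5, 11.5 and 11.5 CPM in Chrom2-160R. It was at 34.8, 40.3, 32.6 and 30.8 CPM in Chrom3-5R and 64.4, 60.2, 59.5 and 52.1 CPM in Chrom3-160R. The 4 groups did not overlap, with the chromosome 3 line above the chromosome 2 line and 160R widening that gap. Its interaction was 1.74 ± 0.13 log2 (edgeR adjusted p = 4.5e-07).

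CG8757 (3L:13840197-13842240) was at 2.07, 1.52, 0.591 and 2.09 CPM in Chrom2-5R and 2.48, 3.17, 3.1 and 2.87 CPM in Chrom2-160R. It was at 3.45, 4.13, 3.43 and 3.91 CPM in Chrom3-5R and 1.07, 1.25, 1.07 and 0.988 CPM in Chrom3-160R. Every library of Chrom2-160R and Chrom3-5R lay above every library of the other groups. The interaction was -2.68 ± 0.3 log2 (edgeR adjusted p = 5.1e-05).

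Ir92a, an ionotropic receptor of ammonia-sensing olfactory neurons, fell with 160R on chromosome 2 from 1.1 ± 0.58 to 0.407 ± 0.222 CPM. It rose on chromosome 3 from 0.317 ± 0.166 to 1.51 ± 0.271 CPM, and the interaction was 3.76 ± 0.57 log2 (edgeR adjusted p = 0.00092). CG12164 went the other way, from 0.68 ± 0.23 to 1.38 ± 0.523 CPM on chromosome 2 and from 1.74 ± 0.398 to 0.647 ± 0.111 CPM on chromosome 3. Its interaction was -2.32 ± 0.39 (edgeR adjusted p = 0.0017). These genes are near 1 CPM, where the libraries of a group overlapped those of others.

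Several opposite genes with known roles, chosen after their values were seen, changed by less than 2-fold in both lines. BigH1, an embryonic linker histone, had an interaction of 1.55 ± 0.25 log2 (edgeR adjusted p = 0.0014) and lost the call after thinning (adjusted p = 0.0601). The values were 0.47 ± 0.07 for CDase, a ceramidase, 0.59 ± 0.11 for trbl, a Tribbles pseudokinase, and -0.52 ± 0.07 for beat-Ib, of the beaten path family of axon guidance proteins. Their edgeR adjusted p-values were 0.00075, 0.0038 and 0.00025.

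Crossed levels, in which all 8 libraries of Chrom2-5R and Chrom3-160R lay on one side of all 8 libraries of Chrom2-160R and Chrom3-5R, were found for 30 genes, which is 0.222% of those tested. Chrom2-5R and Chrom3-160R were the higher groups in 13 (0.0961% of genes tested) and the lower groups in 17 (0.126%). All 30 were called in the interaction. Crossing is defined along the contrast that the interaction tests, in the same libraries, so those calls are not separate support. Of the 30 crossed genes 10 were opposite, 18 changed on chromosome 2 alone, 1 on chromosome 3 alone and 1 in neither. The gap between the sets of libraries ran from 0.0 to 1.52 log2, the widest for Unc-115b and p24-2. In 14 of the 30 an overlapping partner had at least 0.5 times the gene's counts.

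CG17005 (2L:9327744-9330332) was one of the crossed genes changed on chromosome 2 alone. It was at 1.23, 0.863, 0.967 and 1.52 CPM in Chrom2-5R, 8.41, 6.76, 5.87 and 5.88 CPM in Chrom2-160R, 3.41, 3.71, 3.56 and 3.53 CPM in Chrom3-5R and 1.89, 2.71, 2.89 and 3.18 CPM in Chrom3-160R. The 4 groups did not overlap, and the chromosome 3 groups lay between those of chromosome 2. Its interaction was -2.95 ± 0.25 log2 (edgeR adjusted p = 1.6e-06). The noncoding RNA gene CR45456 (2L:9325845-9326721), just beside it, had an interaction of -2.52 ± 0.48 (edgeR adjusted p = 0.0042) and lost the call after thinning (adjusted p = 0.103).

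CG30054 (2R:12623726-12625352) had the same order of groups. Its levels were 12.4, 9.19, 9.14 and 10.3 CPM in Chrom2-5R, 41.1, 29.5, 27.3 and 31 CPM in Chrom2-160R, 18.3, 19.5, 18.8 and 18.3 CPM in Chrom3-5R and 14.8, 15.9, 15.3 and 17.5 CPM in Chrom3-160R. The 4 groups were again separate, with an interaction of -1.9 ± 0.16 log2 (edgeR adjusted p = 2e-06). Ugt86Di, a glucuronosyltransferase gene, and CR44391, annotated as a pseudogene, were crossed at lower levels, with interactions of -1.3 ± 0.2 (edgeR adjusted p = 0.0008) and -1.09 ± 0.2 (adjusted p = 0.003).

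Across 32 gene lists, the share of called members differed widely around the 7.27% of all genes tested, as the plot of called members by list shows. The lists were chosen with earlier results of these data known, and counts and medians are given without a test. The highest share was that of synaptic and neuronal genes, 14 of 34 measured members (41.2%), followed by fat body markers (29.2%), cytosolic ribosomal proteins (27.4%), juvenile hormone genes (27.3%) and cytochrome P450 genes (24.7%).

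**Figure D4:**
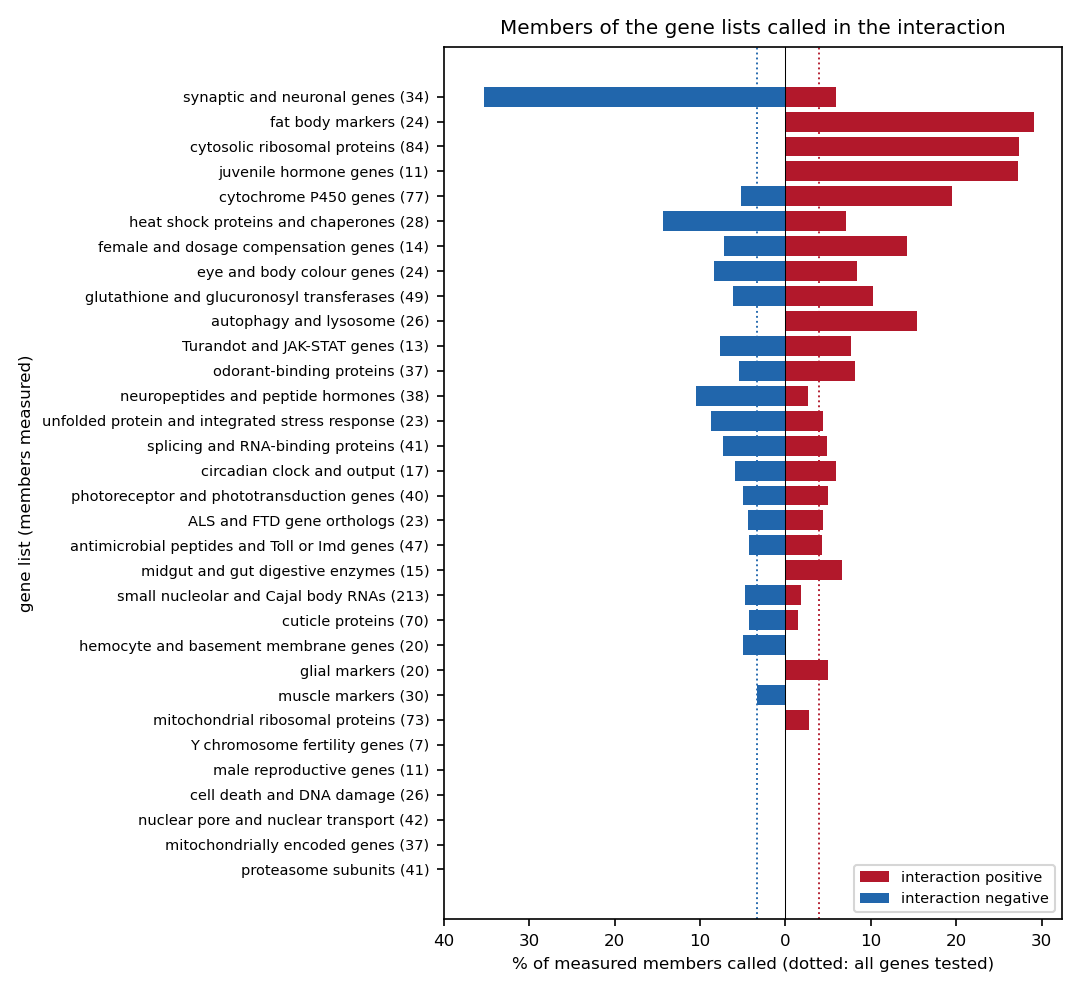
Percent of the measured members of each list called with a positive (right, red) or negative (left, blue) interaction, with the number measured in brackets and dotted lines at the percent of all genes tested. Synaptic and neuronal genes lie mainly to the left and ribosomal protein, fat body and juvenile hormone genes wholly to the right.

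Genes of the cytosolic ribosome, the machine that translates messenger RNA, leaned one way. Of 84 measured, 23 were called with a positive interaction and none with a negative one, and the median was 0.31 log2 against -0.01 over all genes. An unadjusted p below 0.05 was reached by 64, limma-voom called 22 positive and none negative, and DESeq2 called 35 and none. Over all 13525 genes tested, the unadjusted p was below 0.05 for 3112, limma-voom called 868 and DESeq2 called 1416. Within the lines, 76 of the 84 were called lower with 160R on chromosome 2, against 13.3% of all genes tested. On chromosome 3 none of the 84 was called, where only 2.11% of all genes tested were.

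RpS24, a small-subunit protein, was at 330, 297, 304 and 258 CPM in Chrom2-5R, 218, 205, 220 and 215 CPM in Chrom2-160R, 174, 194, 198 and 181 CPM in Chrom3-5R and 187, 175, 168 and 183 CPM in Chrom3-160R. Chrom2-5R lay above all others and Chrom2-160R above both chromosome 3 groups, which overlapped. The interaction was 0.4 ± 0.09 log2 (edgeR adjusted p = 0.011). RpS15Ab, a little-expressed copy of RpS15A, differed in order, with 19.7 ± 1.24, 15.7 ± 1.29, 17.8 ± 1.33 and 20.1 ± 0.655 CPM in the Chrom2-5R, Chrom2-160R, Chrom3-5R and then Chrom3-160R libraries. Its interaction was 0.52 ± 0.09 (edgeR adjusted p = 0.0031).

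The level of the ribosomal list differed between groups as well as with library depth. Its median log2 CPM, centred over the 16 libraries, lay between 0.17 and 0.56 in Chrom2-5R and between -0.07 and 0.14 in Chrom2-160R. It lay between -0.22 and -0.07 in Chrom3-5R and between -0.28 and -0.15 in Chrom3-160R, and it was highest in the shallowest library. In the chromosome 2 line the totals of the 5R and 160R libraries overlapped. Chrom2-5R replicates 2, 3 and 4 (20377950, 19224852 and 23498476 counts) were at 0.39, 0.36 and 0.17. Chrom2-160R replicates 1 and 2 (20648866 and 19047916 counts) were at 0.14 and 0.03. The part of depth in these levels was not tested. With all libraries thinned to the smallest total, 21 members were still called and the median was 0.32. The count of 23 was 7 without Chrom2-160R replicate 2 and 10 without Chrom3-5R replicate 1, Chrom3-160R replicate 1 or any 1 of Chrom2-5R replicates 1, 2 and 3. It was 12 without Chrom2-160R replicate 3 or Chrom3-5R replicate 4 and 14 without Chrom2-160R replicate 4 or Chrom3-160R replicate 2. It was 50 without Chrom2-160R replicate 1 and 62 without Chrom2-5R replicate 4. The median stayed between 0.24 and 0.37. Of the 73 mitochondrial ribosomal protein genes, 2 were called (2.74%, against 7.27% of all genes tested), with a list median of -0.06.

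**Figure D5:**
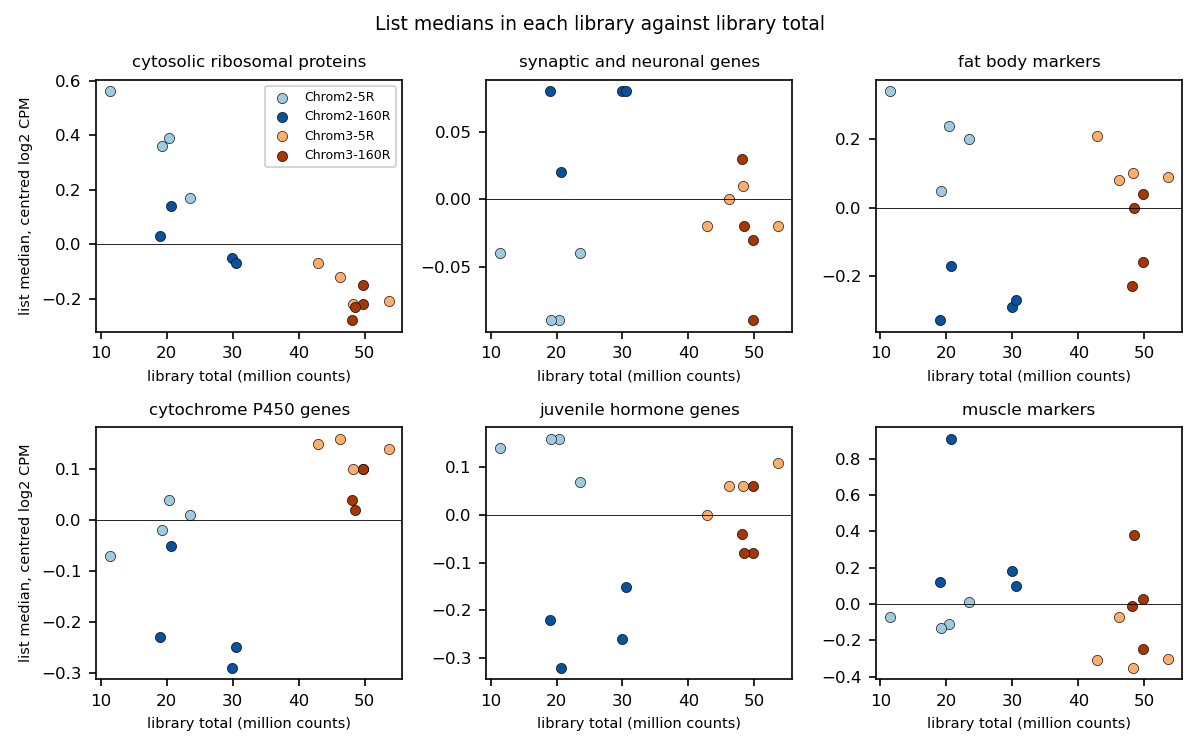
Median log2 CPM of 6 gene lists in each library, centred for each gene over the 16 libraries (y axis), against the total counts of the library (x axis). Ribosomal protein medians run from 0.56 in the shallowest library to -0.28 in a deep one, while fat body and juvenile hormone medians are lowest or near lowest in the Chrom2-160R libraries.

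Synaptic and neuronal genes leaned the other way. Of 34 measured, 12 were called with a negative and 2 with a positive interaction, and the median was -0.21 log2. On chromosome 2, 14 were called higher and 2 lower with 160R (12.8% and 13.3% of all genes tested). On chromosome 3 none of the 34 was called, which is near the 2.11% of all genes tested. Named from this list, Sh, the Shaker potassium channel, had means of 783 ± 35.5, 917 ± 67.7, 991 ± 19.3 and 903 ± 36.6 CPM in the Chrom2-5R, Chrom2-160R, Chrom3-5R and then Chrom3-160R libraries. Its interaction was -0.36 ± 0.07 log2 (edgeR adjusted p = 0.0064). The changes were small but the spread between libraries was small as well.

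Other members, chosen after their values were seen, were Rdl, a GABA receptor subunit (-0.33 ± 0.07, edgeR adjusted p = 0.011), and brp, the active zone protein Bruchpilot (-0.27 ± 0.06, adjusted p = 0.016). The call on brp was lost without Chrom3-5R replicate 1 (adjusted p = 0.0514). Snap25, of the vesicle fusion complex, had an interaction of -0.3 ± 0.07 (edgeR adjusted p = 0.018). Its call was lost without Chrom3-5R replicate 1 (adjusted p = 0.0606), Chrom3-5R replicate 4 (0.0533) or Chrom3-160R replicate 2 (0.0502).

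The 12 negative calls fell to 2 without Chrom3-5R replicate 1 and to 3 without Chrom3-5R replicate 4 or Chrom3-160R replicate 2. They fell to 4 without any 1 of Chrom2-5R replicates 2 and 3, Chrom2-160R replicate 2 or Chrom3-160R replicate 1, and to 7 without Chrom2-5R replicate 1 or Chrom2-160R replicates 3 or 4. The median stayed between -0.21 and -0.16. Gene length moved with this list, whose median span was 25614 bases against 2280 over all genes tested. All genes were ranked by span into 5 equal bins. The longest bin held 74 positive and 189 negative calls, against 168 and 67 in the middle bin. The shortest bin held 57 and 66, so the balance did not move steadily with span. Median interactions were -0.058, 0.031 and -0.046 log2 in the shortest, middle and longest bins. Each count covers the whole gene span, introns included, and the part of length in the list's median was not tested.

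The 2 positive members of the list were Ddc, the dopa decarboxylase of dopamine and serotonin synthesis, and Rbp9. Rbp9, a neuronal RNA-binding protein of the ELAV/Hu family, was at 1340, 1170, 1280 and 1220 CPM in Chrom2-5R, 839, 925, 867 and 862 CPM in Chrom2-160R, 844, 808, 839 and 825 CPM in Chrom3-5R and 835, 836, 850 and 800 CPM in Chrom3-160R. Chrom2-5R stood alone, and the other groups overlapped. The interaction was 0.52 ± 0.06 log2 (edgeR adjusted p = 8.4e-05). Its contrast on chromosome 3 was 0.0 ± 0.04. In the list of 41 splicing and RNA-binding proteins, which also holds Rbp9, 2 were called positive and 3 negative, with a median of -0.08. The called share was 12.2%, against 7.27% of all genes tested.

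Fat body markers, which stand for the lipid-storing and secretory tissue around the head capsule, had 7 of 24 measured members called positive and none negative. The median was 0.34 log2, 10 had an unadjusted p below 0.05, and limma-voom called 6 and DESeq2 10, all positive. The same 3 counts over all 13525 genes tested were 3112, 868 and 1416. On chromosome 2, 15 of the list were called lower with 160R and none higher, against 13.3% lower among all genes tested. On chromosome 3, 1 of the 24 was called lower, against 1.43% of all genes. Rfabg, the lipophorin precursor that carries lipids in the blood, was at 10100, 8510, 8910 and 8820 CPM in Chrom2-5R and 6220, 5950, 5470 and 5340 CPM in Chrom2-160R. It was at 8570, 8230, 8730 and 8200 CPM in Chrom3-5R and 7400, 6780, 7050 and 6960 CPM in Chrom3-160R.

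Thus Rfabg was lower with 160R in both lines, without overlap, and the drop was larger on chromosome 2. Its change was -0.66 ± 0.06 log2 there and -0.26 ± 0.06 on chromosome 3, with an interaction of 0.4 ± 0.09 (edgeR adjusted p = 0.0097). Desat1, a fatty acid desaturase, was instead high in Chrom2-5R alone, at 2240 ± 436 CPM against 1320 ± 74.6, 1220 ± 111 and 1240 ± 86 in Chrom2-160R, Chrom3-5R and Chrom3-160R. Its interaction was 0.79 ± 0.16 (edgeR adjusted p = 0.009). Among members chosen after their values were seen, the lipase gene bmm had 0.75 ± 0.16 (edgeR adjusted p = 0.011) and Mtp, a lipid transfer protein, 0.5 ± 0.11 (adjusted p = 0.012).

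The juvenile hormone list had 3 of 11 members called, all positive, and these were the juvenile hormone epoxide hydrolases Jheh1, Jheh2 and Jheh3, which inactivate the hormone and lie together on arm 2R. Of the 11, 6 had an unadjusted p below 0.05, the median was 0.35, limma-voom called 3 and DESeq2 5. Without Chrom2-5R replicate 4 the list's count was 5. Of all 13525 genes tested, 3112 had an unadjusted p below 0.05, limma-voom called 868 and DESeq2 called 1416. Jheh1 was at 123, 131, 136 and 132 CPM in Chrom2-5R, 61.6, 65.7, 60 and 72.9 CPM in Chrom2-160R, 113, 116, 111 and 116 CPM in Chrom3-5R and 104, 90.3, 79.3 and 87.5 CPM in Chrom3-160R. The 4 groups did not overlap, and the interaction was 0.67 ± 0.1 log2 (edgeR adjusted p = 0.00069). Jheh3 had 0.52 ± 0.08 (edgeR adjusted p = 0.00065), and Jheh2, named after its values were seen, 0.35 ± 0.07 (adjusted p = 0.0096).

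Of 77 cytochrome P450 genes, 15 were called positive and 4 negative, with a median of 0.17 log2. Without Chrom2-160R replicate 2, 9 were positive, and with all genes that overlap another gene left out, 7 were positive and 1 negative. Beside Cyp28d2, Cyp9b2, chosen after its values were seen, had means of 125 ± 5.44, 66.5 ± 5.91, 138 ± 8.02 and 98.8 ± 9.2 CPM in the Chrom2-5R, Chrom2-160R, Chrom3-5R and then Chrom3-160R libraries. It fell in both lines and more on chromosome 2, with an interaction of 0.43 ± 0.1 (edgeR adjusted p = 0.013). The glutathione and glucuronosyl transferases had 5 positive and 3 negative calls in 49 (16.3%, against 7.27% of all genes tested). GstZ2 was at 0.78 ± 0.12 (edgeR adjusted p = 0.00083).

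Heat shock proteins and chaperones buffer misfolded proteins. Of 28 measured genes, 4 had a negative interaction (Hsp23, Hsp27, Hsp70Bc and Hsp67Bc) and 2 a positive one (DnaJ-1 and Hsc70-4), with a median of 0.02. The called share was 21.4%, against 7.27% of all genes tested. Hsp23, a small heat shock protein, was at 13, 14.9, 12 and 14.4 CPM in Chrom2-5R and 52.6, 77.2, 87.1 and 28.6 CPM in Chrom2-160R. It was at 14.2, 14.4, 12.7 and 16 CPM in Chrom3-5R and 15.1, 17.1, 17 and 28.4 CPM in Chrom3-160R. The Chrom2-160R libraries varied about 3-fold, and the lowest of them nearly met Chrom3-160R replicate 4.

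The Hsp23 interaction of -1.73 ± 0.43 log2 (edgeR adjusted p = 0.03) lost the call without any of 9 single libraries, at adjusted p = 0.0523 to 0.0673, and in limma-voom (0.0782). These were Chrom2-5R replicates 1, 2 and 3, Chrom2-160R replicates 2 and 3, Chrom3-5R replicates 1 and 4 and Chrom3-160R replicates 1 and 2. Hsp27, chosen after its values were seen, had means of 2.9 ± 0.331, 12.3 ± 5.8, 2.02 ± 0.24 and 2.62 ± 0.732 CPM in the same order of groups, with an interaction of -1.69 ± 0.46 (edgeR adjusted p = 0.042). It was called without Chrom2-160R replicate 1 or 4 or Chrom3-160R replicate 4, and lost the call without any 1 of the other 13 libraries, at adjusted p = 0.0512 to 0.0869. Hsp70Bc, Hsp67Bc and Hsc70-4, chosen likewise, lay close to the threshold (edgeR adjusted p = 0.047, 0.048 and 0.034), and lost the call without 13, 14 and 9 of the 16 libraries left out singly. For Hsp70Bc the libraries that did not end the call were Chrom2-160R replicates 1 and 4 and replicate 2 of Chrom2-5R, and for Hsp67Bc Chrom2-5R replicate 4 and Chrom2-160R replicate 4. For Hsc70-4 those that ended it were Chrom2-5R replicates 1, 2 and 3, Chrom2-160R replicate 4, Chrom3-5R replicates 1, 2 and 4 and Chrom3-160R replicates 1 and 2. limma-voom and the thinned counts called no member of the list negative, and DESeq2 called 6. DnaJ-1, a co-chaperone, was at 245 ± 7.49, 162 ± 20.7, 216 ± 5.28 and 194 ± 6.27 CPM and its interaction was 0.44 ± 0.09 (edgeR adjusted p = 0.0065).

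Immune and hormone genes gave single members in both directions. Listericin, an antibacterial protein gene, had an interaction of -0.94 ± 0.14 log2 (edgeR adjusted p = 0.00083), and GNBP1, a pattern recognition receptor of the Toll pathway, had 0.52 ± 0.08 (adjusted p = 0.0014). They came from a list of 47 with 2 calls each way, a share of 8.51% that is near the 7.27% of all genes tested. Of 38 neuropeptide and peptide hormone genes 1 was positive and 4 negative (13.2% called). Ilp3, an insulin-like peptide, rose on chromosome 2 from 7.44 ± 0.43 to 13.7 ± 0.212 CPM against 11.7 ± 1.32 and 12.7 ± 1.03 CPM on chromosome 3, but its partner CG32052 had 8.55 times its counts, so the value is uncertain.

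In the autophagy and lysosome list, 4 of 26 (15.4%, against 7.27% of all genes tested) were positive and none negative, with a median of 0. Without Chrom2-5R replicate 4 or Chrom2-160R replicate 1 there were 7. LM408, a lysosomal alpha-mannosidase, was lowest in Chrom2-160R, at 283 ± 26.9 CPM against 549 ± 37.8, 558 ± 16.4 and 472 ± 45.7 in Chrom2-5R, Chrom3-5R and Chrom3-160R. Its interaction was 0.71 ± 0.1 log2 (edgeR adjusted p = 0.0005). Among 23 fly orthologs of ALS and FTD genes, 1 was positive (ref(2)P) and 1 negative (Pur-alpha). This share of 8.7% is near the 7.27% of all genes tested.

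Cuticle protein genes, which build the exoskeleton, had 1 positive and 3 negative calls among 70 (5.71%, against 7.27% of all genes tested). Cpr49Af was at 0.283, 0.305, 0.322 and 0.348 CPM in Chrom2-5R and 1.47, 1.66, 2.13 and 2.32 CPM in Chrom2-160R, with 0.848, 1.49, 0.64 and 0.721 CPM in Chrom3-5R and 0.764, 0.682, 0.804 and 1.09 CPM in Chrom3-160R. Chrom2-5R lay below all others and the chromosome 3 groups overlapped. The interaction was -2.72 ± 0.4 log2 (edgeR adjusted p = 0.00071). The 213 small nucleolar and Cajal body RNA genes had 4 positive and 10 negative calls (6.57%, against 7.27% of all genes tested). Every called one lies within a host gene with at least 32.34 times its counts. The most strongly called, snoRNA:lola-c and snoRNA:lola-d, had interactions of -0.86 ± 0.14 and -0.74 ± 0.13, whereas their host lola had -0.08 ± 0.06 (edgeR adjusted p = 0.49).

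Over all 13525 genes tested, 983 were called and 3112 had an unadjusted p below 0.05. In 6 lists no member was called with edgeR. These were the proteasome (41 measured, 1 with an unadjusted p below 0.05), mitochondrially encoded genes (37, 3), nuclear pore and nuclear transport (42, 7), cell death and DNA damage (26, 5), male reproductive genes (11, 2) and Y chromosome fertility genes (7, 0). limma-voom called none in any of them, and DESeq2 called 1 nuclear pore and 1 male reproductive gene. Without Chrom2-160R replicate 1, 3 proteasome genes were positive.

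Chromosome 4, a short chromosome rich in heterochromatin, held 105 tested genes, of which 18 (17.1%) were called, 2 positive and 16 negative. On the other arms 6.0% to 8.87% were called. The median interaction was -0.161 log2 on chromosome 4 and between -0.019 and 0.011 elsewhere. The median change with 160R on chromosome 4 was 0.157 in the chromosome 2 line and -0.012 in the chromosome 3 line, so the negative values came from the chromosome 2 line. In 14 of the 18 the Chrom2-5R libraries lay below the 12 others, against 15.4% of the called genes and 3.27% of all genes tested. The 18 were called from these same libraries and 16 were negative, which favours that pattern. The share therefore describes them and is not a separate test.

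Examples chosen after their values were seen were CaMKII, a neuronal kinase, Crk, an adaptor protein, Syt7, a synaptotagmin, and Pur-alpha, a protein known to bind C9ORF72 repeat RNA. CaMKII had means of 566 ± 53, 771 ± 45.6, 803 ± 34.2 and 802 ± 51.6 CPM in the Chrom2-5R, Chrom2-160R, Chrom3-5R and then Chrom3-160R libraries, and an interaction of -0.45 ± 0.09 log2 (edgeR adjusted p = 0.0066). Crk had -0.41 ± 0.09 (edgeR adjusted p = 0.0088) and Syt7 -0.35 ± 0.08 (adjusted p = 0.0099). Pur-alpha (4:558016-567257) was at 209, 253, 240 and 266 CPM in Chrom2-5R, below all 12 others at 307 to 408 CPM. Its interaction was -0.42 ± 0.11 (edgeR adjusted p = 0.028), and the call was lost without any of 6 single libraries, at adjusted p = 0.0577 to 0.0681. These were Chrom2-5R replicate 3, Chrom2-160R replicate 2, Chrom3-5R replicates 1 and 2 and Chrom3-160R replicates 1 and 2.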

How the data were processed

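Per the labels' protocols, total RNA was extracted from frozen heads and made into strand-specific libraries without poly(A) selection. The deposited values are raw read counts per gene, made by the authors over the whole gene span with introns. The submitters' processing notes name Trimmomatic, STAR, bedtools and DESeq and the builds BDGP6 and mm10. Their versions, the role of mm10 and the use of strand in counting are not stated in the labels, so genes that overlap on either strand are treated as uncertain. Library totals were 11452337 to 53615117. The transgene is not analysed here.

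The interaction and the 4 simple contrasts were tested with edgeR 4.0.16 (R 4.3.3) on a model of the 4 groups. Steps were filterByExpr (13525 of 17558 genes), TMM factors, robust glmQLFit and glmQLFTest, with Benjamini-Hochberg adjustment over all genes tested at 0.05. The biological coefficient of variation was 0.106. DESeq2 1.42.0 and limma-voom (limma 3.58.1) were alternatives, beside other scalings and filters, thinned libraries, overlapping genes left out and single libraries left out. The code was tested on simulated data. Tables and figures used Python 3.11.15, pandas 2.3.3 and matplotlib 3.10.9. CPM are TMM-scaled.

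Genes were named by rule. Those with an interaction of at least 1 log2 and no overlapping partner with 0.5 or more of their counts gave the 3 smallest p-values per class and direction, the 4 largest interactions each way at a mean of at least 1 CPM, and the 4 crossed genes with the widest gap. Each of the 32 lists with at least 3 called members gave 2 more. One gene that the rule names is not reported here. Members and lists were chosen with earlier results of these data known. Gene positions are 1-based on BDGP6. Nothing says that replicates were separate crosses, so p-values measure the spread between libraries, which may be technical. Replicate numbers did not pair the libraries.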

Additional observations from a re-analysis of the deposited data

Results flagged for a closer look

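Each of the following differs between the insertion lines by the interaction test itself, beginning with the count of 983 genes. The interactions below are log2 values, and each has an edgeR adjusted p under 0.05. Among genes named for their class, the negative values were -2.11 for CG11052, -2.95 for CG17005, -1.9 for CG30054, -3.39 for CG14238, -1.2 for CG6142, -3.04 for TwdlV, -2.68 for CG8757, -2.32 for CG12164, -1.09 for CR44391, -2.52 for CR45456 and -1.3 for Ugt86Di. The positive ones were 1.66 for nompB, 4.39 for CG13081, 1.39 for CG16926, 1.39 for CG6280, 2.37 for Obp99a, 2.11 for CG15696, 3.7 for Cyp28d2, 1.74 for CG31205, 3.76 for Ir92a and 3.12 for CG18673.

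Among genes named through the lists, negative values were found for Cpr49Af (-2.72), Cyp9c1 (-1.92), Obp93a (-1.67), snoRNA:lola-c (-0.86), snoRNA:lola-d (-0.74), Hsp23 (-1.73), Listericin (-0.94), Manf (-0.34), Gp93 (-0.37), Sh (-0.36), Ilp3 (-0.77) and prom (-0.28). Positive values were found for RpS15Ab (0.52), RpS24 (0.4), GstZ2 (0.78), Obp19b (0.56), DnaJ-1 (0.44), Rbp9 (0.52), GNBP1 (0.52), LM408 (0.71), ref(2)P (0.37), Mip (0.36), pinta (0.4), Desat1 (0.79), Rfabg (0.4), Yp3 (0.7), mof (0.29), v (0.44), Hn (0.42), Jheh3 (0.52) and Jheh1 (0.67). Obp93a overlaps CG5793, which had 55.83 times its counts, and Manf overlaps CG10311 with 1.9 times, so both are uncertain. Some of these calls rest on single libraries. Gp93 lost the call without 11 of the 16 libraries left out singly (edgeR adjusted p = 0.0527 to 0.0973) and kept it without Chrom2-5R replicate 4, Chrom2-160R replicate 2, Chrom3-5R replicate 4 and Chrom3-160R replicates 1 and 4. Manf lost it without 6 (adjusted p = 0.0542 to 0.0674), which were Chrom2-5R replicates 1, 2 and 3, Chrom2-160R replicate 3, Chrom3-5R replicate 1 and Chrom3-160R replicate 2. Hn lost it without Chrom2-5R replicates 2 or 3 or Chrom2-160R replicates 2 or 3 (adjusted p = 0.0505 to 0.0535), and Mip without Chrom2-5R replicates 1 or 3 (0.0516 and 0.0524). The thinned counts gave pinta an adjusted p of 0.122.

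In 10 of 212 gene and group combinations, 1 library lay far from the other 3, with a gap over the range of the group above Dixon's 95% critical value. Chance gives about 1 in 20. The library was high for CG13081 in Chrom2-5R replicate 3 (0.893), Cyp28d2 in Chrom3-5R replicate 3 (0.865), RpS15Ab in Chrom2-5R replicate 2 (0.849), snoRNA:lola-c in Chrom2-5R replicate 2 (0.913), Hsp23 in Chrom3-160R replicate 4 (0.844), Manf in Chrom2-5R replicate 4 (0.898) and Jheh3 in Chrom2-160R replicate 3 (0.891). It was low for Obp99a in Chrom3-5R replicate 1 (0.9), snoRNA:lola-c in Chrom3-160R replicate 2 (0.882) and Sh in Chrom2-160R replicate 1 (0.886).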

How the results depend on the processing

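Of 53 named genes, 43 kept the call under every alternative that gave a value (28 at most), 10 lost it under at least 1 (CG6280, Obp99a, CG15696, CR45456, Hsp23, Manf, Gp93, Mip, pinta and Hn) and none changed sign. Leaving out single libraries gave 584 to 1695 interaction genes, 341 to 935 positive, 230 to 760 negative and 240 to 448 past 1.5-fold. The same settings gave 2657 to 3779 genes for the chromosome 2 contrast, 167 to 452 for chromosome 3, 3291 to 4446 between lines with 5R and 2191 to 3311 with 160R. The classes ran over 464 to 1430 (chromosome 2 only), 53 to 124 (chromosome 3 only), 18 to 34 (opposite), 7 to 38 (same direction) and 16 to 110 (neither), with 27 to 45 crossed. Upper-quartile scaling gave 755 negative genes. DESeq2 called 541 genes on chromosome 3, with 117 on chromosome 3 only, 43 opposite, 44 in the same direction and 92 in neither, and limma-voom called 434 on chromosome 3. Thinning gave 294 negative, 50 on chromosome 3 only and 19 crossed. Leaving out overlapping genes tested fewer genes: 479 called, 274 positive, 205 negative, 178 past 1.5-fold, 1720 and 144 in the chromosome 2 and 3 contrasts, and 1724 and 1323 between lines with 5R and 160R. It left 398 on chromosome 2 only, 35 on chromosome 3 only, 14 opposite, 12 in the same direction, 20 in neither and 9 crossed. Leaving out both muscle-rich libraries gave 109 in neither class and 56 crossed. With the replicate number as a block, 647 genes were called, 634 of them among the 983, with 270 negative, 10 in the same direction and 26 in neither. Libraries of the same number did not deviate together (r of -0.247 to 0.244 in 24 pairs), and 4 of 16 libraries correlated best with their own number. Of the uncalled genes, eca changed sign around 0: 0 in limma-voom, 0.14 after thinning, 0.02 without both muscle-rich libraries, and -0.12 to 0.06 without single libraries (0.06, 0.02, 0.04 and 0.01 where positive). Crossed counts were not made under settings that leave CPM as they are. The causes of these changes were not tested, and some settings held fewer genes or libraries. Depth limits genes near or below 1 CPM, chiefly in the chromosome 2 line.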
